A study of Saccharomyces cerevisiae with 6 samples.

Results

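The 10 hexose transporter genes HXT1 to HXT10 of Saccharomyces cerevisiae were picked by name from the 6316 protein-coding features of a table with 15753 features. The table holds sequencing counts of total RNA from the wild-type strain S288C, grown at 25 °C with no further treatment, after precipitation with J2, an antibody that binds double-stranded RNA. The 3 J2 unbound libraries contain the RNA still in solution after a further round with J2, and the 3 J2 eluate libraries contain the RNA released from the first beads. The groups have the same strain, culture and lack of treatment and are fractions of 1 precipitation, repeated 3 times, while the medium and its sugar were not given in the sources used here. Values are normalised counts, that is read counts divided by a single factor per library, and all 10 genes had counts in all 6 libraries.

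HXT genes encode membrane proteins that let glucose and other hexoses diffuse down their gradient into the cell. Yeast switches between them with the sugar supply: Hxt1 and Hxt3 are low-affinity carriers made when glucose is plentiful, Hxt2 and Hxt4 bind glucose more tightly and are induced when it is scarce, and Hxt6 and Hxt7 are high-affinity carriers kept off by abundant glucose. Hxt5 is linked to slow growth and reserve metabolism, whereas Hxt8, Hxt9 and Hxt10 contribute little to glucose uptake in laboratory cultures. The sensors Snf3 and Rgt2, relatives of these carriers, report glucose to the repressor Rgt1, which acts on HXT promoters. J2 recognises RNA duplexes, such as those formed by transcripts of opposite strands.

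HXT6 and HXT7 are near copies of each other, which decides which of their reads can be told apart. The coding regions of HXT6 and HXT7 are both 1713 bases long, lie on the minus strand of chromosome IV and differ at 3 positions near their 3′ end. These stretches of sacCer3 (coding positions 1621 to 1688, counted from the A of the start codon) are shown because all coding bases that separate the 2 genes lie in them, in capitals.
HXT6, chrIV:1159633-1159700, minus strand: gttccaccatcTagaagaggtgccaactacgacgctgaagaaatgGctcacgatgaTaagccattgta
HXT7, chrIV:1154241-1154308, minus strand: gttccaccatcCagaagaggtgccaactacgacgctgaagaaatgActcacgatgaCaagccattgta
From HXT6 to HXT7 the substitutions are T1632C, G1666A and T1677C, of which G1666A alone changes the protein (A556T). Of the 1664 windows of 50 bases in either coding region, the read length used, 1582 are shared by both and 82 occur once in the genome.

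The other members are further apart, as a stretch around the conserved residues PESPR of the sugar transporter family shows. The stretch is given for a close relative of HXT3, for HXT7 and for a distant member, with bases that differ from HXT3 in capitals.
HXT3, chrIV:1163869-1163919, minus strand: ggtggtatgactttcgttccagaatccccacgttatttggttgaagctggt
HXT1, chrVIII:291825-291875, minus strand: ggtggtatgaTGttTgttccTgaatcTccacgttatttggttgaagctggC
HXT7, chrIV:1155128-1155178, minus strand: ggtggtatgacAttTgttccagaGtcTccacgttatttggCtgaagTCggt
HXT10, chrVI:113047-113097, plus strand: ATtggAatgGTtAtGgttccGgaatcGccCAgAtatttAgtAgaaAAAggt
Over these 51 bases HXT1 has 6 differences from HXT3, HXT7 has 7 and HXT10 has 17. Among the 45 pairs of members the proteins were between 62.2% (HXT8 and HXT10) and 99.8% (HXT6 and HXT7) identical, with a median of 69.3%, and the closest pair after HXT6 and HXT7 was HXT1 and HXT3 with 86.6%.

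The members lie on 5 chromosomes. HXT7, HXT6 and HXT3 follow each other on chromosome IV, with 3679 and 1636 bases between their coding regions, and HXT4, HXT1 and HXT5 do so on chromosome VIII, with 2101 and 2043 bases. HXT8 and HXT9 lie on chromosome X, 26.9 and 19.4 kb from the chromosome end. HXT10 lies on chromosome VI and HXT2 on chromosome XIII.

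The counted span of each gene is longer than its coding region, because the authors added untranslated regions. Of the positions from which a read can overlap this span, 100% were found once in the genome for HXT2, HXT8 and HXT10, between 96.2% and 98.0% for HXT1, HXT4 and HXT5, and 88.7% for HXT3, which shares 217 coding windows with HXT6 and HXT7. The share was 46.6% for HXT9, which shares 954 windows with HXT11, and 21.1% for HXT6 and HXT7. How reads with several positions were counted was not stated. The values of HXT6, HXT7 and HXT9 are therefore uncertain as total levels.

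Library sums ranged from 18645818 to 43141091 counts. The log2 fold change of eluate over unbound is called log2 FC from here on. Its median over the mRNAs was -1.39 with the deposited size factors. It depends on the scaling, being -1.23 for TMM, -0.48 for the total count and -0.08 for size factors from mRNAs only. The fold changes are therefore also given relative to the median mRNA of the same libraries, a difference that a size factor hardly alters. Mitochondrial mRNAs took between 1.15% and 1.72% of unbound and between 3.93% and 9.53% of eluate counts, and their part in the results was not tested.

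In the unbound RNA the glucose-rich carrier HXT3 was by far the most abundant member. The 10 genes together took 0.330%, 0.342% and 0.233% of the mRNA counts in unbound 1, 2 and 3, with Wilson intervals no wider than 0.340% to 0.345%, which cover counting error only. HXT3 accounted for 66.5%, 67.0% and 58.3% of these reads. In the eluates the 10 genes took 0.186%, 0.194% and 0.154% and HXT3 38.9%, 38.0% and 37.0% of their reads. All 3 eluates thus lay below all 3 unbound libraries in both shares.

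Levels of different genes were compared per 1000 uniquely placed read positions, assuming that reads with several positions were left out. On this scale the mean unbound level was 29600 ± 7157 (SD, n = 3) normalised counts for HXT3, 7030 ± 445 for HXT2, 4420 ± 1619 for HXT1 and 3647 ± 1059 for HXT4. HXT7 followed with 1116 ± 918 and HXT6 with 272 ± 117. HXT5 (57.7 ± 37.5), HXT8 (42.4 ± 1.99), HXT9 (19.9 ± 5.42) and HXT10 (14.8 ± 6.72) were lowest. Neighbours in this order did not overlap in their 3 unbound values, except HXT1 with HXT4, HXT5 with HXT8 and HXT9 with HXT10. In the eluates HXT2 (5160 ± 1327, SD, n = 3) and HXT3 (5146 ± 1216) stood at the same level within their spread, ahead of HXT4 (1390 ± 307) and HXT1 (1303 ± 545).

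**Figure D1:**
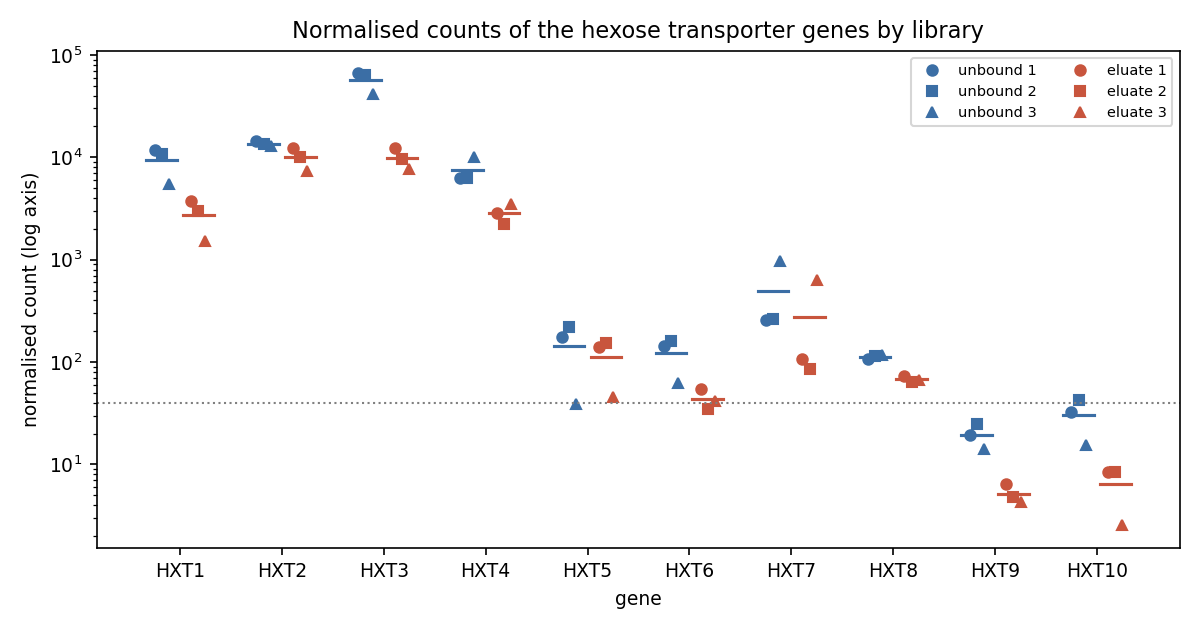
Normalised counts (log axis) of the 10 hexose transporter genes in the 3 unbound (blue) and 3 eluate (red) libraries, with horizontal bars for group means and a dotted line at 40, the minimum mean for counting calls. HXT3 drops from a mean of 57069 to 9921 whereas HXT2 goes from 13590 to 9974, and the library numbered 3 (triangle) stands apart for HXT5 and HXT7.

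The study set out to find the transcripts that J2 holds back, and the transporter mRNAs were compared between the fractions for that reason. A feature was called when the adjusted p of limma, fitted over all 15753 features, was under 0.05, and calls were counted for features with a mean above 40. Of the 8 members above this mean, 5 were reduced in the eluate and 0 were enriched by limma, edgeR or DESeq2. The log2 FC of all 8 was below 0, so that 0 were enriched at an unadjusted p under 0.05 too. Among all 5724 mRNAs above the mean, 74.4% were reduced and 8.0% enriched, so that the members lay near the background. In 6 of the 8 members, all 3 eluates were below all 3 unbound libraries, as were 75.9% of the mRNAs. On recovered reads edgeR and DESeq2, also fitted without pairing, counted 5 reduced members too. A limma fit with the library number as a block, which pairs the fractions, counted 7 reduced and 0 enriched members, beside 76.5% of the mRNAs reduced. All these fits used the deposited size factors. With mRNA size factors 1 member was reduced and 2 were enriched, beside 37.65% and 32.79% of the mRNAs. With the total count 2 were reduced and 1 was enriched, beside 48.85% and 21.54%.

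The median log2 FC of the 8 members was -1.26 (-1.20, -1.55 and -0.81 in the same-numbered library pairs 1, 2 and 3), beside -1.39 for all mRNAs. The members themselves ranged from -2.52 for HXT3 to -0.21 for HXT5. Of all mRNAs above the mean of 40, 17.2% had a lower log2 FC than HXT3 and 81.5% a lower one than HXT5.

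Of the carriers made in plentiful glucose, HXT3 (YDR345C, chromosome IV, 1162592 to 1164716) had 66083, 63941 and 41184 normalised counts in unbound 1, 2 and 3 and 12398, 9631 and 7735 in eluate 1, 2 and 3. Every eluate was far below every unbound library. The log2 FC was -2.52 (SE 0.265, limma adjusted p = 1.74e-05), and HXT3 was called reduced under each of the other scalings too. Its difference from the median mRNA was -1.14 ± 0.171 (SD, n = 3 pairs) on the log2 scale.

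HXT1 (YHR094C, chromosome VIII, 290818 to 292966), the other low-affinity carrier, had 11809, 10797 and 5437 normalised counts in the unbound libraries and 3779, 2982 and 1507 in the eluates. The groups did not overlap, and library 3 was the lowest of both. Its log2 FC was -1.78 (SE 0.373, limma adjusted p = 0.00171), which is -0.40 ± 0.0396 (SD, n = 3 pairs) relative to the median mRNA. With mRNA size factors the call was lost (-0.47, limma adjusted p = 0.297).

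HXT2 (YMR011W, chromosome XIII, 288030 to 289913), an inducible carrier of higher affinity, had 14482, 13521 and 12766 normalised counts in unbound and 12447, 10149 and 7326 in eluate libraries. The highest eluate lay just below the lowest unbound library. The log2 FC of -0.48 (SE 0.222, limma adjusted p = 0.0756) was not called, while the fit with the library number as a block gave an adjusted p of 0.0391. Relative to the median mRNA HXT2 was higher in each pair, by 1.07, 1.00 and 0.64 on the log2 scale. Its sign turned with mRNA size factors (0.84, limma adjusted p = 0.00443) and with the total count (0.44, limma adjusted p = 0.0381), both of which called HXT2 enriched.

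HXT2 and HXT3 thus took different positions, although both are abundant. The log2 FC of HXT2 exceeded that of HXT3 by 2.20, 2.32 and 1.61 in library pairs 1, 2 and 3 (mean 2.04 ± 0.377, SD, n = 3), whatever the scaling.

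HXT4 (YHR092C, chromosome VIII, 286819 to 288882), also induced by scarce glucose, had 6249, 6326 and 10084 normalised counts in unbound and 2856, 2255 and 3526 in eluate libraries. The groups did not overlap, and library 3 was the highest of each. This gave a log2 FC of -1.38 (SE 0.242, limma adjusted p = 0.000556), equal to that of the median mRNA within 0.0042 ± 0.131 (SD, n = 3 pairs). It was -0.06 (limma adjusted p = 0.787) with mRNA size factors and -0.46 (0.107) with the total count, so that the call was lost with both.

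Of the near-identical high-affinity carriers, HXT6 (YDR343C, chromosome IV, 1159308 to 1161370) had 142.9, 159.4 and 61.9 normalised counts in unbound and 55.0, 35.1 and 41.7 in eluate libraries. The lowest unbound value was close to the highest eluate value, and no more than 159.4 normalised counts were seen in any library. The log2 FC was -1.36 (SE 0.378, limma adjusted p = 0.00863), lost as a call with mRNA size factors (-0.06, limma adjusted p = 0.892) and with the total count (-0.45, 0.307).

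HXT7 (YDR342C, chromosome IV, 1153916 to 1155978) had 259.1, 263.9 and 970.4 normalised counts in unbound and 106.7, 86.0 and 626.6 in eluate libraries. Eluate 3 was above unbound 1 and 2, so that the groups overlapped, yet HXT7 was lower in the eluate of each same-numbered pair. The log2 FC of -1.17 (SE 0.727, limma adjusted p = 0.169) was not called. With the library number as a block the SE was 0.215 and the adjusted p 0.000674, and 76.5% of mRNAs were reduced in that fit. Without eluate 3 the log2 FC was -2.07 (limma adjusted p = 0.0073), and without unbound 3 it was -0.54 (0.53). The sum of HXT6 and HXT7, which does not depend on how their reads were divided, had a log2 FC of -1.24 (SE 0.586, limma adjusted p = 0.0789).

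HXT5 (YHR096C, chromosome VIII, 294274 to 296798), the carrier of slow-growing cells, had 177.2, 217.9 and 38.7 normalised counts in unbound and 140.6, 153.2 and 45.1 in eluate libraries. The groups overlapped, and both libraries numbered 3 were far below the others. This gave a log2 FC of -0.21 (SE 0.649, limma adjusted p = 0.782). Its sign was not stable: it was 0.35 without eluate 3 and -0.98 without unbound 3, neither called (limma adjusted p = 0.631 and 0.11). HXT5 was above the median mRNA in each pair, by 0.95, 0.91 and 1.66 on the log2 scale.

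HXT8 (YJL214W, chromosome X, 26867 to 29484) had 107.2, 115.1 and 117.3 normalised counts in unbound and 73.2, 64.2 and 66.4 in eluate libraries. It varied least of all members within a group, and the groups did not overlap. The log2 FC was -0.73 (SE 0.223, limma adjusted p = 0.0137), which is 0.65 ± 0.0802 (SD, n = 3 pairs) above the median mRNA. The sign turned with mRNA size factors (0.57, limma adjusted p = 0.0349), and without eluate 2 the call was lost (adjusted p = 0.0503).

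HXT9 (YJL219W, chromosome X, 19447 to 21500) and HXT10 (YFL011W, chromosome VI, 112295 to 114285) were below the mean of 40 and were left out of the counts of calls. HXT9 had 19.4, 24.8 and 14.2 normalised counts in unbound and 6.39, 4.84 and 4.26 in eluate libraries. HXT10 had 32.8, 42.5 and 15.5 in unbound and 8.36, 8.48 and 2.55 in eluate libraries, of which the last corresponds to 3 reads. Both were lower in every eluate, with log2 FC values of -1.71 (SE 0.419) for HXT9 and -2.09 (SE 0.541) for HXT10, values that a pseudocount of 10 shrank to -0.94 and -1.25.

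**Figure D2:**
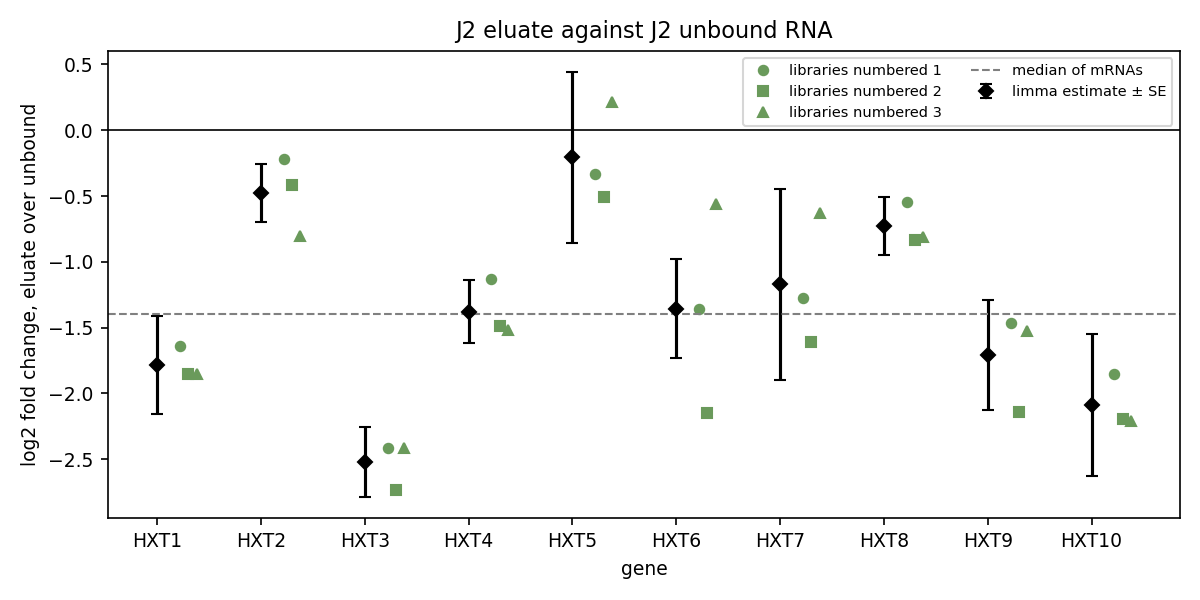
Log2 fold change of eluate over unbound for each gene (black diamonds, limma estimate with its standard error; green symbols, the 3 same-numbered library pairs), with a dashed line at the mRNA median of -1.39. HXT3 lies lowest at -2.52, HXT2, HXT5 and HXT8 lie above the dashed line in every pair, and the pairs of HXT6 are the most spread.

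Since J2 binds paired RNA, the RNAs of the opposite strand were examined for each gene. A total of 23 features of the other strand overlapped a member by at least 1 base, 12 of them with a mean above 40, at 6 members. By limma 7 of these 12 rose in the eluate and 0 fell (0 also by edgeR and DESeq2), beside 34.6% enriched and 48.0% reduced among all features of that level. Those features include 5724 mRNAs, of which 8.0% were enriched and 74.4% reduced. In counts, 3520 of the 10188 features were enriched, only 458 of them mRNAs, and 4891 were reduced, 4259 of them mRNAs. Most features that are not protein-coding were thus enriched, and the 7 of 12 do not exceed that share. Whether the 12 differ from other such features was not tested. The 7 belong to HXT1, HXT2, HXT3, HXT4 and HXT5. Features that lie over each other on a strand share reads, so that these are fewer than 7 separate RNAs. With mRNA size factors or the total count all 12 were enriched. The whole table moved with these scalings. The median log2 FC of all features above the mean was 0.85 with mRNA size factors and 0.45 with the total count, beside -0.46 with the deposited size factors. HXT6 had no feature on the other strand and HXT10 had none either, and HXT7 had CUT083 alone, with a mean of 18.7.

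Opposite HXT2 lies SUT727 (chromosome XIII, 287910 to 289786, 1757 bases of overlap), a stable unannotated transcript. It had 55.1, 49.6 and 9.02 normalised counts in unbound and 724.0, 882.9 and 147.3 in eluate libraries. The groups did not overlap although library 3 was the lowest of each. This gave a log2 FC of 3.90 (SE 0.763, limma adjusted p = 0.00111). YMR011W-as, which lies within SUT727, gave 3.65 (SE 0.770, limma adjusted p = 0.0018).

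Opposite HXT1, SUT163 (chromosome VIII, 291074 to 292942) covers most of the gene. It rose from 10.4, 5.31 and 19.3 normalised counts in unbound to 57.0, 74.5 and 218.0 in eluate libraries, with a log2 FC of 3.12 (SE 0.566, limma adjusted p = 0.000698). The value of unbound 2 equals the floor of 3 counts. In both fractions SUT163 was highest in library 3, where HXT1 was lowest.

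Opposite HXT4, antisense4942 (chromosome VIII, 287209 to 289042) rose from 20.9, 24.8 and 12.9 to 180.9, 249.5 and 174.5 normalised counts. Its log2 FC of 3.33 (SE 0.312, limma adjusted p = 7.8e-06) had the smallest adjusted p of the 12. SUT162, which overlaps the 3′ part of HXT4 over 341 bases, rose by a log2 FC of 1.15 (SE 0.295, limma adjusted p = 0.00544).

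Opposite HXT3, SUT069 (chromosome IV, 1162336 to 1165900) runs over the whole gene. It rose from 58.1, 99.2 and 86.3 to 197.1, 262.8 and 254.6 normalised counts, with a log2 FC of 1.56 (SE 0.258, limma adjusted p = 0.000374). YDR345C-as, which lies inside HXT3 and stayed under the mean of 40, had 4.47, 7.09 and 7.73 normalised counts in unbound and 46.2, 53.9 and 59.6 in eluate libraries. Whether reads were counted by strand was not given in the sources used here, and the kit named in the labels is not one known for marking strands. HXT3 lies wholly inside SUT069, yet had 66083 normalised counts in unbound 1 where SUT069 had 58.1, so the table does hold the strands separately, to within 0.0879% there.

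At HXT5 and HXT8 the RNA of the other strand was more abundant than the gene in all 6 libraries. Opposite HXT5, the Xrn1-sensitive transcript XUT_8F-131 (chromosome VIII, 293841 to 296460) had 382.7, 356.1 and 404.6 normalised counts in unbound and 356.9, 489.3 and 936.5 in eluate libraries. Its log2 FC was 0.52 (SE 0.308, limma adjusted p = 0.149), and those of SUT164 (0.53, adjusted p = 0.154) and YHR096C-as (0.74, adjusted p = 0.0602) in the same place were not called either. YHR096C-as was called with the replicate block (adjusted p = 0.0182), TMM (0.0196), edgeR (0.0339) and DESeq2 (0.0222). XUT_8F-131 was called with TMM (0.69, limma adjusted p = 0.0495) and without eluate 1 (0.83, 0.029), and SUT164 without eluate 1 (0.84, 0.0291). Without eluate 3 the log2 FC of XUT_8F-131 was 0.13 (limma adjusted p = 0.529). Unit162, a shorter feature there, rose by 1.22 (SE 0.354, limma adjusted p = 0.0104).

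Opposite HXT8, antisense3994 (chromosome X, 26871 to 29484) had 211.4, 132.9 and 279.6 normalised counts in unbound and 222.7, 218.0 and 168.6 in eluate libraries. Its groups overlapped and its log2 FC was 0.02 (SE 0.281, limma adjusted p = 0.954). YJL214W-as within it gave -0.16 (SE 0.303, limma adjusted p = 0.649). HXT8 was thus the member with RNA on the other strand above the mean of 40 at which no such feature was called.

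The ratio of an opposite-strand RNA to its mRNA within a library is free of any size factor, and was taken for the most abundant such RNA that covered at least 0.5 of itself or of the gene. SUT163 amounted to 0.0882%, 0.0492% and 0.356% of HXT1 in unbound and to 1.51%, 2.5% and 14.5% in eluate libraries. SUT727 amounted to 0.380%, 0.367% and 0.0707% of HXT2 in unbound and to 5.82%, 8.70% and 2.01% in eluate libraries. At both genes the mRNA remained the more abundant strand in every eluate.

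For HXT3 the ratio went from 0.0879%, 0.155% and 0.210% to 1.59%, 2.73% and 3.29%. For HXT4 it went from 0.334%, 0.392% and 0.128% to 6.33%, 11.1% and 4.95%. The mean log2 shift of the ratio was 5.04 for HXT1, 4.44 for HXT2, 4.10 for HXT3 and 4.78 for HXT4. All eluates were above all unbound libraries for these 4 genes. The ratio was not computed for genes outside the family. As 74.4% of all mRNAs were reduced in the eluate, such ratios may rise at other genes too. Whether the shifts are particular to these 4 genes was not tested.

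At HXT5, by contrast, XUT_8F-131 was 2.16, 1.63 and 10.5 times as abundant as the gene in unbound and 2.54, 3.19 and 20.8 times in eluate libraries. antisense3994 was 1.97, 1.15 and 2.38 times as abundant as HXT8 in unbound and 3.04, 3.40 and 2.54 times in eluate libraries. The shifts were 0.73 for HXT5, where the groups overlapped, and 0.76 for HXT8. Within the same-numbered pairs the ratio was higher in each eluate for both, by 0.23, 0.97 and 0.99 on the log2 scale for HXT5 and by 0.62, 1.56 and 0.09 for HXT8. At HXT9, with few counts on either strand, antisense3991 came to 131%, 35.7% and 72.7% of the gene in unbound and to 108%, 125% and 180% in eluate libraries, and its groups overlapped. At HXT7, CUT083 came to 6.90%, 6.71% and 0.531% in unbound and to 16.6%, 29.6% and 4.48% in eluate libraries, which also overlapped. Over the 8 ratios computed, exact permutation (two-sided) gave p = 0.1, the smallest that 3 against 3 libraries allow, for HXT1, HXT2, HXT3, HXT4 and HXT8, and 0.16 for each after adjustment over the 8.

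**Figure D3:**
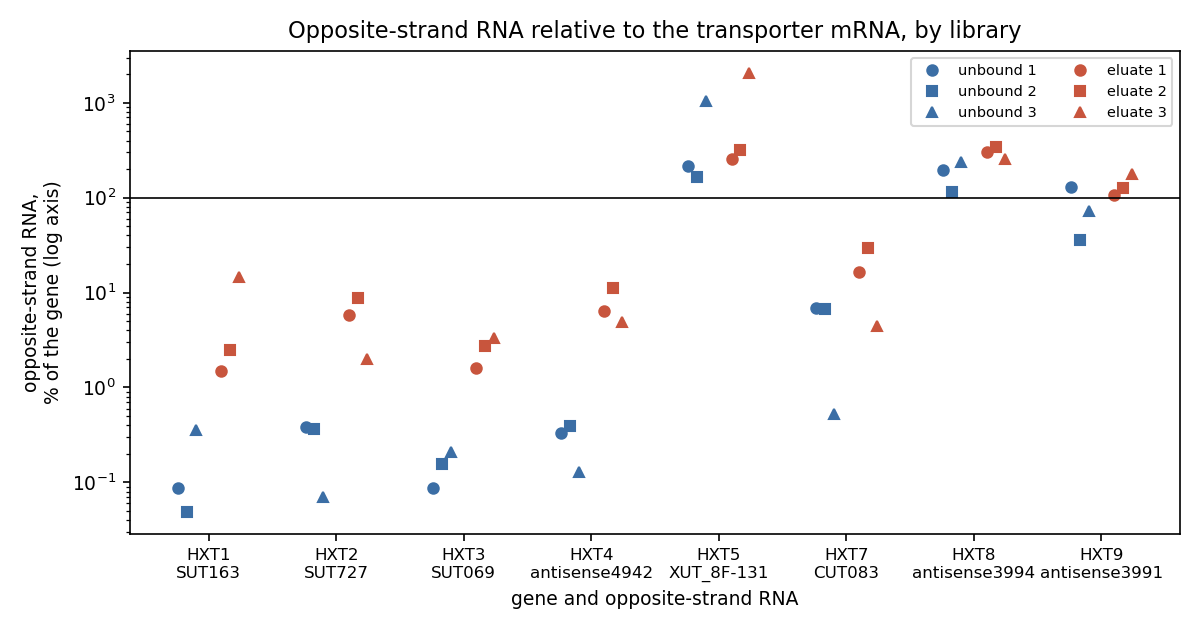
Normalised count of the most abundant opposite-strand RNA as a percentage of the transporter gene (log axis), for the 8 genes with such an RNA, in unbound (blue) and eluate (red) libraries; the line marks 100%. For HXT1 to HXT4 the points rise from below 1% in all unbound libraries to between 1.51% and 14.5% in the eluates, whereas HXT5 and HXT8 lie above the line in all libraries.

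The libraries numbered 3 had a different set of transporter mRNAs. In unbound 3, HXT7 was 3.71 times the mean of unbound 1 and 2, and in eluate 3 it was 6.51 times that of eluate 1 and 2. HXT4 was 1.60 and 1.38 times higher in the same comparisons. HXT1 had 0.481 and 0.446 times, HXT3 0.633 and 0.702 times and HXT5 0.196 and 0.307 times the level of libraries 1 and 2. HXT2 had 0.912 and 0.648 times that level. HXT6 had 0.409 and 0.925 times that level, with its eluate 3 value between those of eluate 1 and 2. Of the carriers grouped above by glucose supply, HXT1, HXT3 and HXT2 were therefore lower, and HXT4 and HXT7 higher, in both fractions of number 3. HXT6 was lower in unbound 3 only. Thus HXT2 and HXT4 went opposite ways, and HXT6 did not rise with HXT7. Libraries 1 and 2 of a fraction differed by a log2 ratio of at most 0.37 in size at 9 of the 10 genes, the exception being HXT6 in the eluates (-0.63).

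Of the 8 members above the mean of 40, 4 differed more than 2-fold between unbound 3 and the mean of unbound 1 and 2, against 3.41% of the mRNAs, and 3 did so in the eluates, against 7.46%. With 1 library per fraction on that side, this comparison has no replicate check and no test, and was chosen after the values were seen.

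HXT6 and HXT7 differed in this respect, HXT6 being lower and HXT7 higher in unbound 3. HXT7 was 1.81, 1.66 and 15.7 times HXT6 in unbound 1, 2 and 3 and 1.94, 2.45 and 15.0 times HXT6 in eluate 1, 2 and 3. The ratio was thus close within each same-numbered pair of fractions and different between number 3 and the others. SUT727, the RNA opposite HXT2, was also low in both fractions of number 3.

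**Figure D4:**
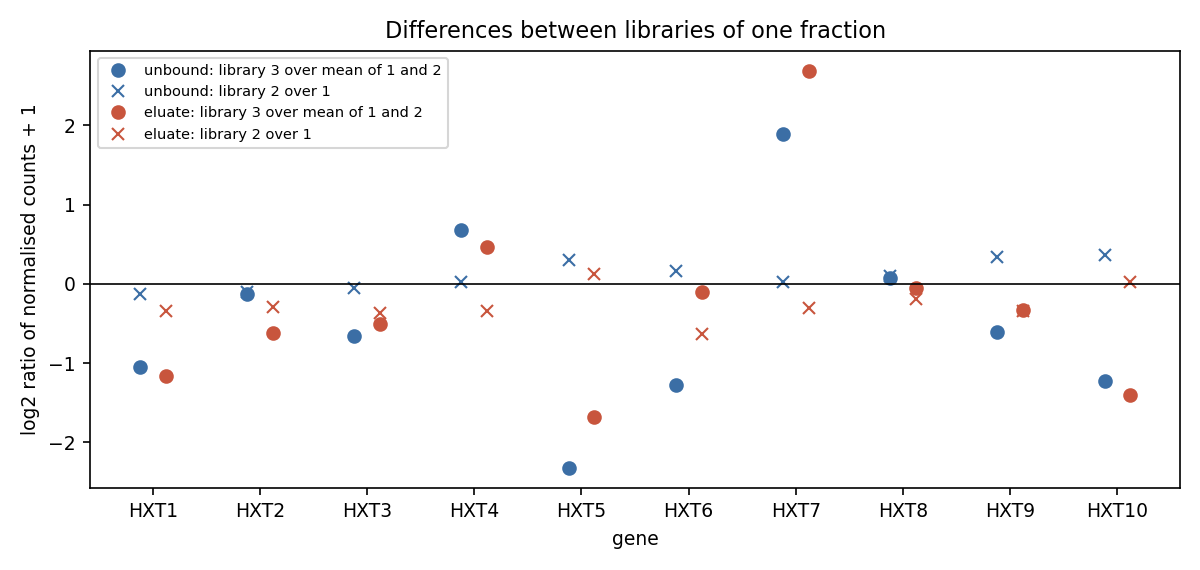
Log2 ratio of normalised counts (with 1 added) between libraries of a fraction: library 3 over the mean of libraries 1 and 2 (filled circles) and library 2 over library 1 (crosses), for unbound (blue) and eluate (red). HXT7 and HXT4 lie above 0 in both fractions, HXT8 lies near 0 and the other 7 genes lie below 0, most of all HXT5 in the unbound libraries at -2.32.

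Genes around the transporters were examined as lists. Of 10 further HXT relatives and sensors, 4 were in the table and 2 of those were above the mean of 40. SNF3, the sensor of low glucose, had 1020, 935.3 and 1125 normalised counts in unbound and 273.3, 188.9 and 240.1 in eluate libraries, with a log2 FC of -2.14 (SE 0.191, limma adjusted p = 5.75e-06). RGT2, the sensor of high glucose, had 893.4, 841.4 and 1259 in unbound and 1196, 1376 and 863.3 in eluate libraries, with 0.20 (SE 0.227, limma adjusted p = 0.451). The sensor pair thus differed in position, with RGT2 showing overlapping groups and SNF3 none. RGT2 depends on the setting: its log2 FC was 1.51 with mRNA size factors and 1.11 with the total count, and it was called enriched with both and without both libraries numbered 3, whereas SNF3 was called reduced in these 3 settings.

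Of 10 genes of the glucose induction pathway, from the sensors to the repressor RGT1, 8 were reduced and 0 enriched, with a median log2 FC of -1.26. With mRNA size factors 3 were reduced and 4 enriched, and with the total count 4 and 2. Of 14 genes of the glucose repression pathway, 13 were reduced and 0 enriched, with a median of -1.60 and a range from -2.34 (ELM1, a kinase that activates Snf1) to 0.30 (HXK2, limma adjusted p = 0.369). HXK2, the main hexokinase in glucose, was also the highest of the 4 genes of hexose phosphorylation, of which 3 were reduced, with -2.34 for EMI2. With mRNA size factors 6 genes of the repression list were reduced and 1, HXK2, was enriched (log2 FC 1.62). With the total count 9 were reduced and HXK2 was again enriched (1.22). Some genes stand in more than 1 list. With the deposited size factors the induction, repression and phosphorylation lists lay near or above the 74.4% of mRNAs that were reduced. With mRNA size factors 37.65% of mRNAs were reduced and 32.79% enriched, and with the total count 48.85% and 21.54%.

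Amino acid permeases, another family of membrane transporters, were taken for comparison. Of 20 genes, 19 were reduced and 0 enriched (13 and 0 with mRNA size factors, 15 and 0 with the total count), with a median log2 FC of -2.40, beside -1.26 for the 8 hexose transporter genes and -1.39 for all mRNAs. They ranged from -3.54 for TAT2, a tryptophan permease, to -0.37 for DIP5, which takes up acidic amino acids and was not called (limma adjusted p = 0.482). HXT3 alone of the hexose transporters lay below the median of the permeases.

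The mRNAs whose values over the 6 libraries were most like those of HXT3 were RNT1, YJL086C and FIT3, with a root mean square difference of 0.0662, 0.0946 and 0.125 between log2 values centred on each gene. Those most like HXT5 were YNL284C-B, JEN1 and YNL284C-A, with 0.244, 0.264 and 0.269.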

How the data were processed

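Per the labels and the study's methods, reads of 50 bases were aligned with STAR to sacCer3, counted with featureCounts (Subread 1.5.0-p1) over genes with added untranslated regions and lncRNAs, and normalised with DESeq2 1.24.0. The deposited table gives each feature's signal as a normalised count (reads over 1 size factor per library), together with fold changes and p-values from the authors' DESeq2 comparison, which were not used. Whole reads were recovered for 100% of values (tolerance 0.05 of a read). The floor of a library was set at 3 counts. Reads lack molecular identifiers, so intervals cover counting error only. The study describes the 3 samples of a group as biologically independent. limma 3.58.1 (trend, log2 of the normalised count + 1, which understates low genes) was the main test, with Benjamini-Hochberg adjustment over 15753 features and calls above a mean of 40. Alternatives were edgeR 4.0.16 (quasi-likelihood) and DESeq2 1.42.0 on recovered reads, other scalings, pseudocounts, filters, a replicate block and left-out libraries. The limma, replicate block, edgeR and DESeq2 fits were tested on simulated data with the deposited size factors and no effect of library number. The other settings were not tested in this way. Same-numbered libraries deviated together (Pearson's r of 0.228, 0.321 and 0.299 over 10188 features), so the numbers, which the titles give, pair the fractions. Of 5811 genes shared with the R64 reference, 99.9% had its start and end, so its sequence was used. Reference symbols named the genes. The members and gene lists were chosen with earlier results of these data known. Named were all members, opposite-strand features above the mean, the extremes of each list and the 3 genes most like the extreme members.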

Additional observations from a re-analysis of the deposited data

How the results depend on the processing

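Scaling moved the results most. With mRNA size factors 1 member was reduced and 2 were enriched, the median log2 fold change of the members was 0.0393 and 12 opposite-strand features were enriched. With the total count the values were 2, 1, -0.36 and 12. The calls of all mRNAs above the minimum mean moved too. With mRNA size factors 37.65% of them were reduced and 32.79% enriched, and with the total count 48.85% and 21.54%. The sign turned with mRNA size factors for HXT2 (0.84), HXT5 (1.09), HXT7 (0.14), HXT8 (0.57) and YJL214W-as (1.15), and with the total count for HXT2 (0.44), HXT5 (0.70), HXT8 (0.18) and YJL214W-as (0.75). TMM turned YJL214W-as (0.0066).

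When single libraries were left out, between 4 and 6 members were reduced and 0 enriched, between 7 and 10 opposite-strand features were enriched and 0 reduced, and the member median ran from -1.36 to -0.95. HXT5 ran from -0.98 to 0.35, antisense3994 from -0.27 (without unbound 2) to 0.2642, being -0.05 without eluate 1 and -0.04 without eluate 2, and YJL214W-as from -0.40 to 0.084 (without unbound 3), being 0.06 without eluate 3. HXT5 was 0.11 without unbound 1 and 0.25 without unbound 2. HXT8 lost its call without eluate 2, and HXT2 gained one without eluate 1 (-0.65, limma adjusted p = 0.0196). antisense3994 was -0.0379 with edgeR and -0.038 with DESeq2. Without both libraries numbered 3, an alternative chosen after seeing the data, 6 members were reduced, HXT7 among them (-1.44, limma adjusted p = 0.0002), and YJL214W-as was 0.30. The replicate block called HXT2, HXT7 and YHR096C-as in addition and 7 members as reduced, and changed no other member's call. No filter on the mean added HXT9 and HXT10, also 7. The cause of the changes was not tested, and the number of unique read positions and low counts limit HXT6, HXT7, HXT9 and HXT10.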
